A study of Mus musculus with 29 samples.

Results

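The mitogen-activated protein (MAP) kinase cascade genes are the genes whose mouse symbols begin with Map2k, Map3k, Map4k or Mapk followed by a digit or the letter a. Row identifiers of the amygdala and medial prefrontal cortex tables were matched to symbols, and 38 such genes were measured in at least 1 region, of 10678 genes in all. The amygdala tables held 36 of them among 9872 genes and those of the prefrontal cortex held 23 among 6080, with 21 in both. The annotation holds 54 genes that fit the rule, and the other 16 were not analysed here. By tier, the amygdala and prefrontal tables held 3 and 2 MAP4K genes, 12 and 6 MAP3K genes, 6 and 4 MAP2K genes, 8 and 7 MAPK genes, 1 and 1 MAPK-activated kinase, and 6 and 3 scaffolds or interacting proteins.

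The libraries came from B6.Cg-Tg(Thy1-YFP)HJrs/J mice, a line in which a Thy1 promoter drives a yellow fluorescent protein in a subset of neurons, and every group carries this transgene. Cells labelled as pyramidal neurons were sorted from 2 regions, amygdala and medial prefrontal cortex, and total RNA was sequenced after removal of ribosomal RNA. Each region has 4 groups, Sus-T and Res-T animals with trauma and Sus-T and Res-T animals without trauma; the labels do not expand Sus-T or Res-T and give no ages. The title places the study in the field of fear extinction. The amygdala had 4 Sus-T and 4 Res-T libraries with trauma, and 2 Sus-T and 3 Res-T libraries without trauma. The prefrontal cortex had 4 Sus-T and 3 Res-T libraries with trauma, and 2 Sus-T and 4 Res-T libraries without trauma. The design text names 9 mice for the amygdala, where 13 libraries were analysed, and no label says that libraries are separate animals, so p-values measure only the spread between these libraries.

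In a MAP kinase cascade, a MAP3K phosphorylates a MAP2K, which phosphorylates a MAP kinase on the threonine and tyrosine of its activation loop, and MAP4Ks and small GTPases act above the MAP3Ks. The best known branches end in the ERK kinases, the JNK kinases and the p38 kinases, and scaffold proteins hold the members of a branch together. In the amygdala and cortex, ERK signalling is known for its part in the consolidation and extinction of conditioned fear, and JNK and p38 signalling for responses to stress. These assays measure RNA and say nothing of the phosphorylation of a kinase.

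Deposited values are a signal in arbitrary units, normalised by the authors in a way not given in the sources used here, and they summed to 3267967 to 4021272 per amygdala library and 2095138 to 2444486 per prefrontal library. Differences are log2 changes of the value plus 1, with their standard errors (SE), from limma with adjustment over all genes of the region, and a gene is called at an adjusted p under 0.05. The dimensions that a set of libraries can span were examined on log2 of (value minus 1), centred by gene, and not on the tested scale. On that scale the deposited values missed 1 for the amygdala and 2 for the prefrontal cortex. The 3 amygdala Res-T libraries without trauma had weights of 2.21e-05 to 0.000163 in the missing dimension and the other amygdala libraries 0.00744 to 0.273. Prefrontal Res-T with trauma replicate 1 had a weight of 0.731 in its 2 missing dimensions. Of 12 pyramidal neuron markers, 4 had amygdala values (Camk2a, Camk2n1, Nrgn and Chn1) and 0 had prefrontal values, so the labelled cell type could not be checked in the prefrontal cortex. Oligodendrocyte markers (17 of 18 measured in the amygdala and 11 of 18 in the prefrontal cortex) made up 1.95% to 7.25% of the amygdala signal and 2.49% to 8.68% of the prefrontal signal.

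The promoters of the 4 members with the smallest p in the comparison with most calls, Sus-T against Res-T without trauma in the amygdala, are printed because these genes lead the result that follows. Each run is the 250 bases before the RefSeq start of the gene, 5′ to 3′ on the gene's strand, on GRCm38.p6. Capitals mark matches on either strand to a GC box (GGGCGG) or an AP-1 site (TGANTCA).
Mapk8ip2, chr15:89453661-89453910, plus strand: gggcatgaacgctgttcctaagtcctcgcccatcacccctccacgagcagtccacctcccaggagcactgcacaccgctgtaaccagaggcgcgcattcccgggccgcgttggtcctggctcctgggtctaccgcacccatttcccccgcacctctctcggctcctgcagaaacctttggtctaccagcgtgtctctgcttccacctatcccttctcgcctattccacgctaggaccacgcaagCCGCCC
Map4k5, chr12:69893164-69893413, minus strand: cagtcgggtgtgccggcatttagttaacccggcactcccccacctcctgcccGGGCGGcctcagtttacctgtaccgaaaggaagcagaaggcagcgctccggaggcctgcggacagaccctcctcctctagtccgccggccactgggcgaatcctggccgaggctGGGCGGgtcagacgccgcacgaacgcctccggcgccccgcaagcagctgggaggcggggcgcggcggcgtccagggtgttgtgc
Map3k10, chr7:27674582-27674831, minus strand: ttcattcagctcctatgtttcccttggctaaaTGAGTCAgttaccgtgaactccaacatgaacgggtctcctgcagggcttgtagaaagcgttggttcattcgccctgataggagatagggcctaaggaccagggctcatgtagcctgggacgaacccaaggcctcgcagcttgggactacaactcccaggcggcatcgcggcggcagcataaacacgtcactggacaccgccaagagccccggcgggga
Map3k5, chr10:19934276-19934525, plus strand: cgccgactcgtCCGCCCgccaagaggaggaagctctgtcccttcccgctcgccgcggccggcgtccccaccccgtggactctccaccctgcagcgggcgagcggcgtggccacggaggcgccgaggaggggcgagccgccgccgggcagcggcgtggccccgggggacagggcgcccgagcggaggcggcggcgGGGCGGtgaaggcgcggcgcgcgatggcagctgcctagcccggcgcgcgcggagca
The Mapk8ip2 window held 1 GC box, and the Map4k5 and Map3k5 windows held 2 each. The Map3k10 window held 1 AP-1 site and no GC box. A GC box was present in 32.7% of 32851 promoter windows of this length and in 25 of the 42 windows of measured members. An AP-1 site was present in 6.75% of all windows and 3 of the 42. The 42 belong to 30 of the 38 measured members, some with more than 1 window. The other measured members, Map3k2 and Mapk4 among them, had no counted window. The cAMP response element TGACGTCA, in 1.55% of all windows and 1 of the 42, and the EGR site GCGTGGGCG, in 0.536% and 0 of the 42, had no match in the printed windows. None of these motifs overlapped within the printed windows, and a match is only a description of the letters.

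Sus-T and Res-T amygdala libraries without trauma differed in 10 of the 36 members, 27.8%, against 27.4% of all 9872 genes called (limma), so the share of members was close to the background. Of these, 6 were higher in Sus-T, where 12.4% of all genes were called higher, among them the scaffold Mapk8ip2, the MAP3Ks Map3k10 and Map3k5, and the MAP kinases Mapk10 and Mapk3. The other 4 were lower, where 15% of all genes were called lower: the MAP4Ks Map4k5 and Map4k4 and the MAP3Ks Map3k11 and Map3k2. Of the tiers, MAPK genes had a median log2 change of 0.56 with 7 of 8 above 0, and MAP2K genes 0.46 with 4 of 6 above 0. MAP3K genes had a median of -0.34 with 5 of 12 above 0 and a range of -1.67 to 1.79, and MAP4K genes -0.54 with 0 of 3 above 0. The 6 scaffolds or interacting proteins had a median of 0.09. After quantile normalisation the median was -0.17 for MAP4K genes and 0.30 for scaffolds or interacting proteins, and after median-of-ratios scaling these were -0.48, with 1 of 3 above 0, and 0.15. The median was 0.14 over all members (0.24 after quantile normalisation) and -0.03 over all genes, and no tier was tested as a group. Every Sus-T library lay above every Res-T library for 13 members and below for 9, and the groups did not overlap for 58.9% of all genes.

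**Figure D1:**
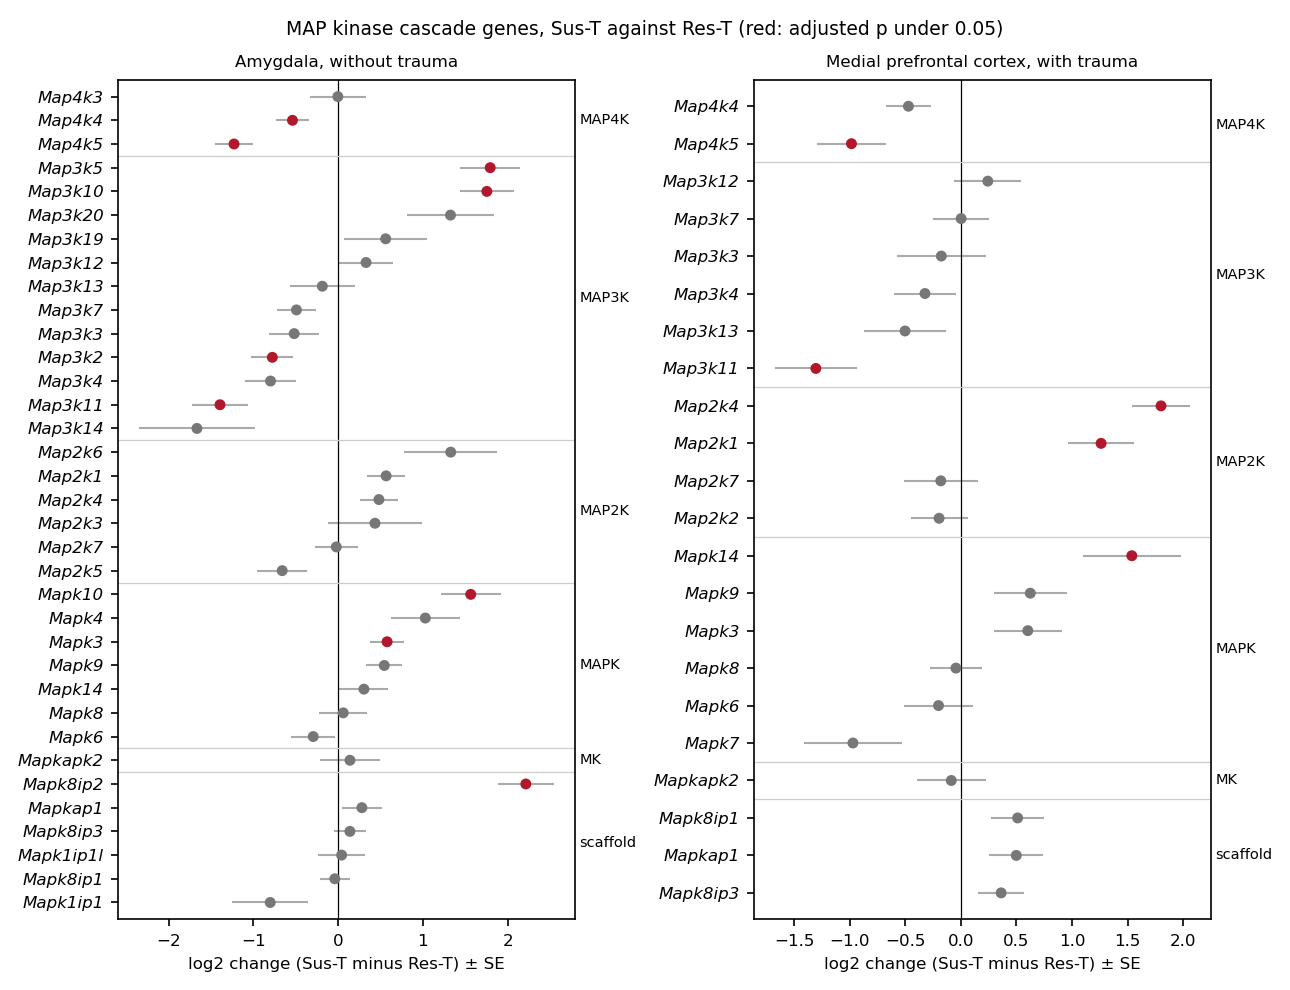
Log2 changes of the value plus 1 with their standard errors for the measured members, Sus-T minus Res-T, grouped by kinase tier (MK, MAPK-activated kinase), in the amygdala without trauma (left) and the prefrontal cortex with trauma (right). Red points passed an adjusted p of 0.05, as did 10 of 36 members in the amygdala and 6 of 23 in the prefrontal cortex, of which 1 in each region is not plotted; Map4k5 and Map3k11 lie left of 0 in both.

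The scaffold Mapk8ip2 (chr15:89453913-89464468, ENSMUSG00000022619), which encodes JIP2, a brain-enriched protein that binds JNK pathway kinases, had values of 229 and 267 in Sus-T amygdala libraries without trauma, against 52.3, 54.8 and 50.4 in Res-T. Both Sus-T values were far above the Res-T values, which lay close to each other. The log2 change was 2.22 ± 0.33 (SE), 4.64-fold higher in Sus-T, with an adjusted p of 0.00015, the smallest of the members. In these bulk libraries, a different share of cells of a type and a different amount of RNA per cell cannot be told apart. For the other JIP genes measured, Mapk8ip1 (JIP1) averaged 2081 ± 24.0 in Sus-T and 2149 ± 272 in Res-T (SD, n = 2 and 3), a log2 change of -0.04 ± 0.18 (adjusted p = 0.898), and Mapk8ip3 (JIP3) had 0.14 ± 0.19 (adjusted p = 0.621).

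Among the MAP3Ks, Map3k10 (chr7:27656375-27674598), which encodes the mixed-lineage kinase MLK2, had values of 216 and 190.0 in Sus-T amygdala libraries without trauma, against 45.4, 65.4 and 70.0 in Res-T. Map3k5 (chr10:19934472-20142753), which encodes the oxidative stress-responsive kinase ASK1, had 155 and 285 in Sus-T, against 72.9, 38.8 and 75.8 in Res-T. For both genes the Sus-T libraries lay above every Res-T library, with a wider gap between the Sus-T libraries for Map3k5. Log2 changes of 1.75 ± 0.32 were found for Map3k10 (3.37-fold higher, adjusted p = 0.000666) and of 1.79 ± 0.35 for Map3k5 (3.47-fold higher, adjusted p = 0.00125). Exons of Map3k10 share 612 bases, 14.8% of its exon length, with the opposite-strand gene Ttc9b, and whether the quantification used strand is not given in the sources used here.

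The other 2 called MAP3Ks were lower in Sus-T. Map3k11 (chr19:5688742-5702865), which encodes the mixed-lineage kinase MLK3, a JNK and p38 pathway activator, had values of 72.3 and 109.7 in Sus-T amygdala libraries without trauma, against 271, 250.4 and 192 in Res-T. Map3k2, which encodes MEKK2, an activator of the ERK5 and JNK branches, had 296 and 446 in Sus-T, against 520.1, 655 and 712 in Res-T. Both genes had Sus-T below Res-T in every library. The log2 changes were -1.39 ± 0.33 for Map3k11 (2.63-fold lower, adjusted p = 0.00424) and -0.78 ± 0.25 for Map3k2 (1.71-fold lower, adjusted p = 0.0274). Without Sus-T without trauma replicate 1, the log2 change was -1.10 for Map3k11 (adjusted p = 0.0757) and -0.48 for Map3k2 (adjusted p = 0.307). Map3k2 also missed the threshold without Res-T without trauma replicate 2 (adjusted p = 0.0753) or replicate 3 (adjusted p = 0.0932). Exons of Map3k11 overlap opposite-strand genes over 9.79% and 2.03% of its exon length.

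None of the other 8 MAP3Ks passed the test. Map3k14, which encodes NIK, a kinase of the non-canonical NF-kB pathway, had values of 2.92 and 17.3 in Sus-T against 32.5, 25.1 and 21.2 in Res-T, among the lowest values of any member, and a log2 change of -1.67 ± 0.68 (adjusted p = 0.0785). Without Sus-T without trauma replicate 3 its log2 change was -2.78 (adjusted p = 0.017). Map3k20, which encodes the ribotoxic stress kinase ZAK, had 127 and 68.2 in Sus-T against 36.1, 29.0 and 46.2 in Res-T (log2 change 1.33 ± 0.51, adjusted p = 0.0619). Both genes had groups that did not overlap, in opposite directions. Map3k4 (MEKK4) had a log2 change of -0.80 (adjusted p = 0.0624), Map3k7 (TAK1) -0.49 (adjusted p = 0.12) and Map3k3 (MEKK3) -0.52 (adjusted p = 0.213). Map3k12 (DLK), Map3k13 (LZK) and Map3k19 had overlapping groups and log2 changes of 0.33, -0.19 and 0.56.

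Both called MAP4Ks were lower in Sus-T. Map4k5 (chr12:69803750-69893200), which encodes a germinal centre kinase family member that acts above the JNK branch, had values of 400.0 and 535 in Sus-T amygdala libraries without trauma, against 1091, 1253 and 933 in Res-T. Map4k4 (chr1:39900913-40026310), which encodes a kinase of the same family, had 1674 and 1705 in Sus-T, against 2634, 2667 and 2101 in Res-T. The Sus-T libraries lay below every Res-T library for both genes, with a smaller gap for Map4k4. The log2 changes were -1.23 ± 0.22 for Map4k5 (2.34-fold lower, adjusted p = 0.000634) and -0.54 ± 0.20 for Map4k4 (1.45-fold lower, adjusted p = 0.0497). Map4k4 missed the threshold in 11 of 14 alternatives, among them quantile normalisation (log2 change -0.17, adjusted p = 0.484). Map4k3, the third measured MAP4K, had a log2 change of -0.00 (adjusted p = 0.997).

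Among the MAP kinases, Mapk10 (chr5:102907948-103211334), which encodes the neuron-enriched JNK3, had values of 402 and 355 in Sus-T amygdala libraries without trauma, against 145, 100.3 and 141 in Res-T. Both Sus-T libraries lay far above every Res-T library, with a log2 change of 1.56 ± 0.36 (2.96-fold higher, adjusted p = 0.0035). The other JNK genes differed less. Mapk9 (JNK2) had 456 and 412 in Sus-T against 343, 298 and 256 in Res-T (log2 change 0.54 ± 0.21, adjusted p = 0.0656). Mapk8 (JNK1) had 462 and 331 in Sus-T against 342, 353 and 437 in Res-T, with overlapping groups (log2 change 0.06 ± 0.28, adjusted p = 0.9).

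Mapk3 (chr7:126759601-126765819), which encodes the MAP kinase ERK1, had values of 813 and 686 in Sus-T amygdala libraries without trauma, against 549, 469 and 485 in Res-T. Both Sus-T libraries lay above every Res-T library, and replicate 1 was the higher of them. The log2 change was 0.58 ± 0.20 (1.49-fold higher, adjusted p = 0.0397, limma). It was 0.46 without Sus-T without trauma replicate 1 (adjusted p = 0.26), and the gene missed the threshold without any 1 of the 5 libraries of the comparison, with adjusted p of 0.0503 to 0.26. Mapk14, which encodes p38 alpha, had 170.4 and 258 in Sus-T against 206, 167 and 142 in Res-T (log2 change 0.30 ± 0.29, adjusted p = 0.467). The atypical MAP kinases Mapk4 (ERK4) and Mapk6 (ERK3) had log2 changes of 1.03 (adjusted p = 0.0718) and -0.29 (adjusted p = 0.427).

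None of the 6 MAP2Ks passed the test in this comparison. Map2k1 (chr9:64185770-64253631), which encodes MEK1, a kinase that activates ERK, had 315 and 285 in Sus-T against 202, 199 and 204 in Res-T, with groups that did not overlap (log2 change 0.57 ± 0.22, adjusted p = 0.0671). Map2k4, which encodes MKK4, a JNK and p38 activator, had 342 and 335 in Sus-T against 201, 258 and 272 in Res-T (log2 change 0.48 ± 0.22, adjusted p = 0.122). Both had Sus-T libraries above every Res-T library. Map2k6 (MKK6, a p38 activator) had a log2 change of 1.33 (adjusted p = 0.0814), Map2k3 (MKK3, also for p38) 0.44 (adjusted p = 0.602), Map2k5 (MEK5, for ERK5) -0.66 (adjusted p = 0.103) and Map2k7 (MKK7, for JNK) -0.02 (adjusted p = 0.964). The p38-activated kinase Mapkapk2 had 0.14 (adjusted p = 0.806), and the interacting proteins Mapkap1 (SIN1, a subunit of mTOR complex 2), Mapk1ip1 and Mapk1ip1l had 0.28, -0.80 and 0.04, with adjusted p of 0.202 to 0.933. Map2k6 passed without Res-T without trauma replicate 3 (1.80, adjusted p = 0.0322), and Mapk1ip1 without Sus-T without trauma replicate 1 (-1.56, adjusted p = 0.0426).

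**Figure D2:**
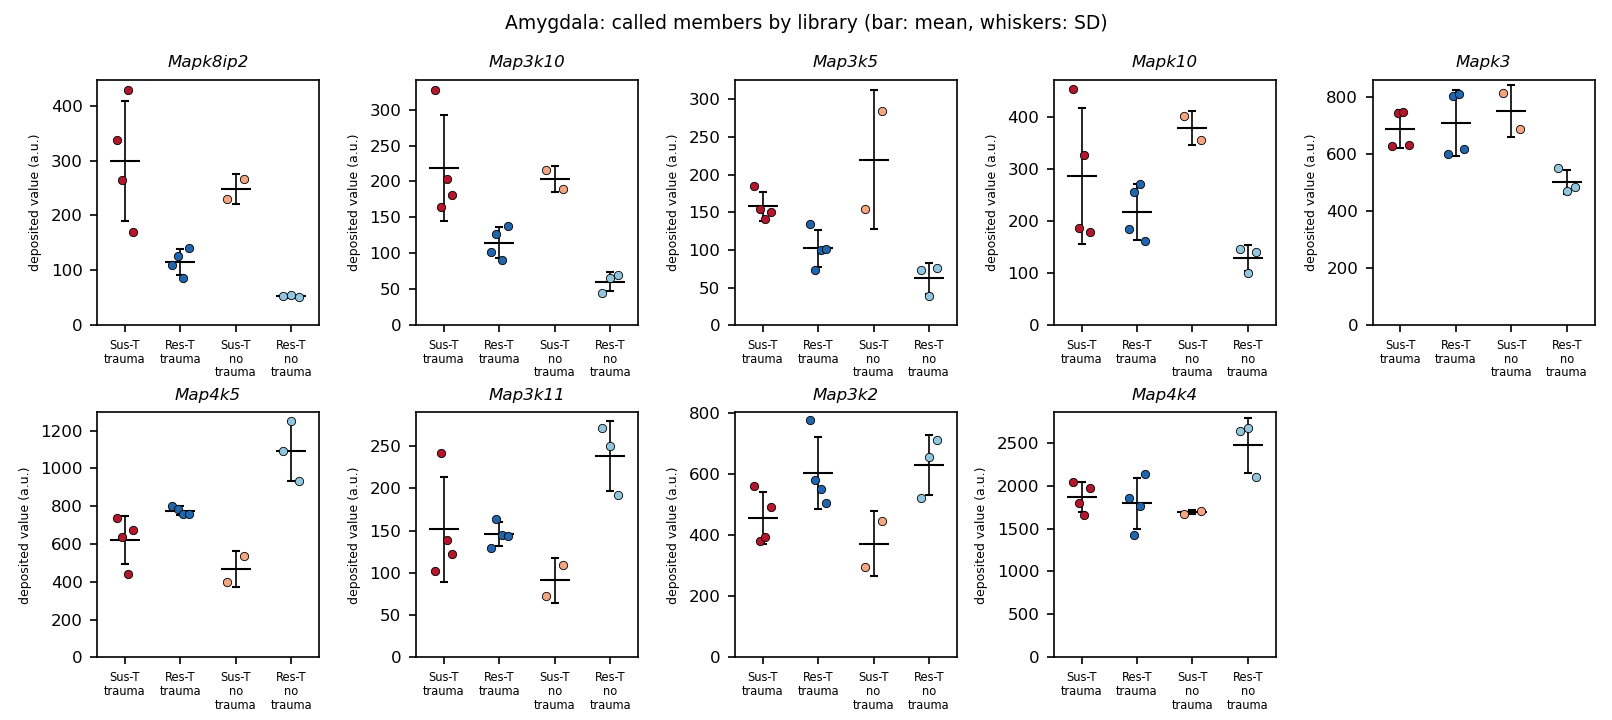
Deposited value of 9 of the 10 called amygdala members in every library, in arbitrary units, with the 4 groups side by side; bars are group means and whiskers the SD. In the groups without trauma, the Sus-T points of Mapk8ip2, Map3k10, Map3k5, Mapk10 and Mapk3 lie above all Res-T points, and those of Map4k5, Map3k11, Map3k2 and Map4k4 lie below.

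Cell type markers moved with this comparison. Oligodendrocyte markers made up 1.95% to 2.91% of the signal in Sus-T amygdala libraries without trauma and 6.17% to 7.25% in Res-T. Of these, 15 of 17 were called lower in Sus-T, and 0 of 17 had a log2 change above 0. The 4 measured pyramidal markers made up 0.121% to 0.142% in Sus-T and 0.00808% to 0.0101% in Res-T, and all 4 were higher, led by Camk2a with a log2 change of 5.04. Astrocyte markers made up 1.03% to 1.90% in Sus-T and 0.307% to 0.478% in Res-T (5 of 11 called higher, 9 of 11 above 0). All 3 measured microglia markers were called higher. With the mean log2 level of the oligodendrocyte markers as a covariate, 0 of 36 members and 44 of all genes were called. The changes under this covariate were 2.88 ± 0.92 for Mapk8ip2, 2.34 ± 0.99 for Map3k5, 1.79 ± 0.90 for Map3k10 and 1.68 ± 1.01 for Mapk10, close to or above those without it and with larger errors. They were -0.03 ± 0.84 for Map3k11 and -0.18 ± 0.56 for Map4k5, and Map3k2 (0.11 ± 0.66) took the opposite sign. Without trauma, the covariate ran from 10.4 to 11.2 in Sus-T and from 12.5 to 12.8 in Res-T, without overlap. This fit therefore rests on extending the marker slope seen within groups across that gap. A call or its loss under this fit is not read as separating the group difference from the marker level. The part of the pyramidal markers was not tested. Without Sus-T without trauma replicate 1, 6 of 36 members and 1565 of all genes were called.

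**Figure D3:**
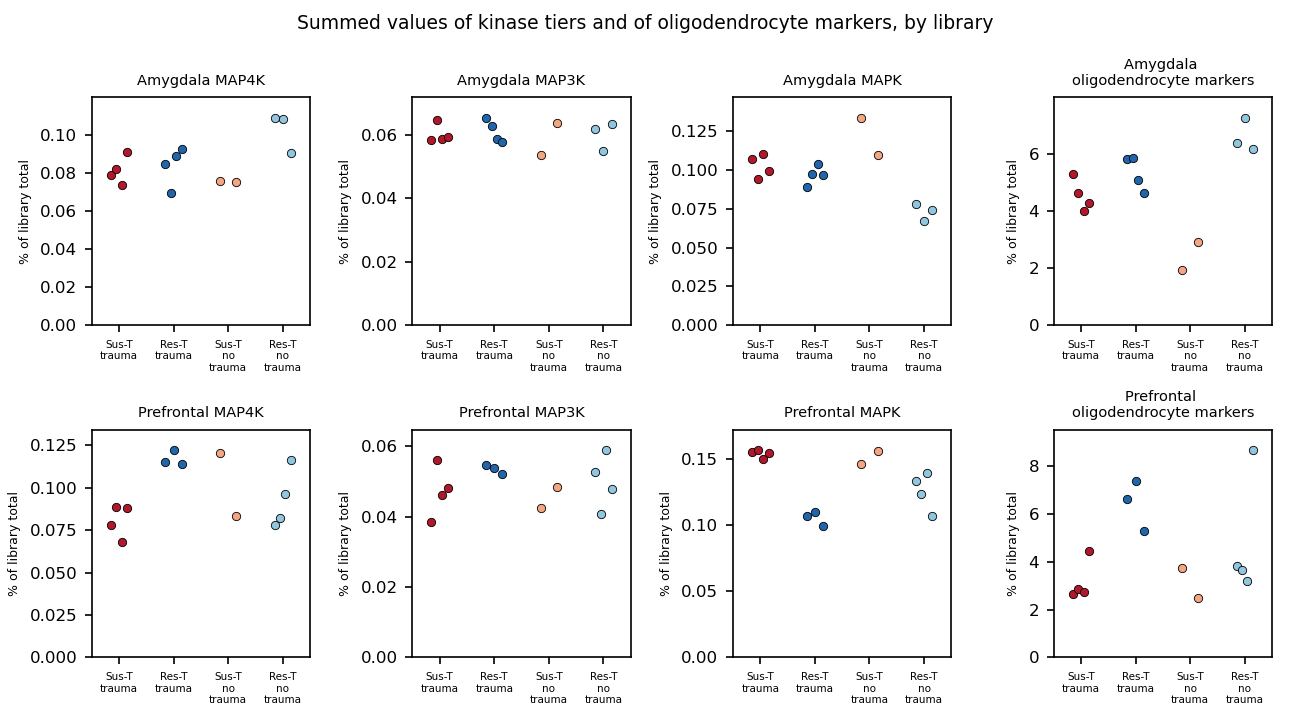
Percent of the summed signal of each library taken by the MAP4K, MAP3K and MAPK genes and by the oligodendrocyte markers, in the amygdala (top) and the prefrontal cortex (bottom); each point is a library, coloured by group. In the amygdala without trauma, MAPK genes took 0.110% to 0.133% in Sus-T and 0.0668% to 0.0777% in Res-T, and MAP4K genes 0.0754% to 0.0758% in Sus-T and 0.0904% to 0.109% in Res-T.

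After trauma, Sus-T and Res-T amygdala libraries differed in 0 of 36 members and 0% of all genes at an adjusted p under 0.05 (limma); 3 members and 1142 genes had an unadjusted p under 0.05. Mapk8ip2 had the smallest adjusted p of the members, 0.0724, with values of 337, 264, 428 and 170.2 in Sus-T, against 109, 126, 85.9 and 141 in Res-T. No Res-T library reached the lowest Sus-T library, with a log2 change of 1.31 ± 0.26; without Sus-T with trauma replicate 4 it was 1.56 and passed (adjusted p = 0.0171). Map3k10 had values of 327, 165, 204 and 181 in Sus-T against 102, 127, 91.3 and 138 in Res-T, again with no overlap (log2 change 0.90, adjusted p = 0.165). Map3k5 and Map2k3 were also higher in every Sus-T library, with log2 changes of 0.65 (adjusted p = 0.364) and 0.86 (adjusted p = 0.448), and Map4k5 was lower in every Sus-T library with -0.34 (adjusted p = 0.451). The groups did not overlap for 5 of 36 members, against 5.75% of all genes. Mapk3 overlapped between groups, with a log2 change of -0.03 (adjusted p = 0.959), as did Map3k11 with -0.02 (adjusted p = 0.98). Oligodendrocyte markers made up 4.01% to 5.31% of the signal in Sus-T and 4.62% to 5.84% in Res-T with trauma. Pyramidal markers made up 0.0597% to 0.234% in Sus-T and 0.0241% to 0.0532% in Res-T, without overlap, and all 4 had log2 changes above 0, with a median of 1.44. Astrocyte markers made up 0.724% to 1.58% in Sus-T and 0.293% to 0.813% in Res-T, and 11 of 11 had log2 changes above 0, with a median of 0.55. No marker passed the test here, and the part of these markers in the differences of Mapk8ip2 and Map3k10 was not tested.

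With against without trauma in the amygdala, Res-T libraries differed in 1 of 36 members, 2.78%, against 6.18% of all genes called, 3.3% higher and 2.88% lower (limma). The member was Mapk8ip2, higher with trauma, with 109, 126, 85.9 and 141 with trauma, against 52.3, 54.8 and 50.4 without. All libraries with trauma lay above all without, with a log2 change of 1.10 ± 0.28 (2.14-fold higher, adjusted p = 0.0271). Its adjusted p was 0.054 to 0.0919 without Res-T with trauma replicate 4 or without any 1 of the 3 Res-T libraries without trauma, and all-gene calls were 101 to 163 in place of 610 without 1 of these 3. Map3k10 was near the threshold, with 102, 127, 91.3 and 138 with trauma against 45.4, 65.4 and 70.0 without (log2 change 0.92, adjusted p = 0.0504). For Res-T the groups did not overlap for 23.1% of all genes. Cell type markers moved with this comparison as well. The 4 pyramidal markers made up 0.0241% to 0.0532% of the signal in Res-T with trauma and 0.00808% to 0.0101% without, with 2 of 4 called higher and a median log2 change of 1.73. Oligodendrocyte markers made up 4.62% to 5.84% with trauma and 6.17% to 7.25% without, with 2 of 17 called lower and 0 of 17 above 0. With the mean oligodendrocyte level as a covariate, Mapk8ip2 had a log2 change of 1.28 ± 0.37 and an adjusted p of 0.0483. That level did not overlap between these groups, so the fit extends the slope seen within groups across a gap. It is not read as separating the marker level from the group difference. The part of the pyramidal markers in the result was not tested. In Sus-T, 0 of 36 members and 0.0304% of all genes were called, 0.0203% higher. Of the members 2, and of all genes 1168, had an unadjusted p under 0.05, and the smallest adjusted p of a member was 0.314, for Map3k14 (limma). The Sus-T groups did not overlap for 0 of 36 members and 20.4% of all genes. Oligodendrocyte markers moved here too, upward with trauma, with 17 of 17 above 0, a median log2 change of 1.13 and 1 called higher. Of the pyramidal markers, 1 of 4 was above 0, with a median of -0.15.

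The trauma effect was also compared between Sus-T and Res-T in the amygdala as an interaction. It was called for 0 of 36 members, against 6.74% of all genes, 4.76% higher (limma), and 9 members and 2336 genes had an unadjusted p under 0.05. Map3k11 came nearest, with means of 151 ± 62.2 in Sus-T with trauma and 91.0 ± 26.4 in Sus-T without, and of 146 ± 14.2 in Res-T with trauma and 238 ± 41.0 in Res-T without (SD, n = 4, 2, 4 and 3). Its interaction was 1.37 ± 0.41 on the log2 scale (adjusted p = 0.0534), and it passed without Sus-T with trauma replicate 1 (adjusted p = 0.0281), without Res-T with trauma replicate 2 (0.0458) or without Sus-T without trauma replicate 3 (0.0487). Map4k5 had an interaction of 0.88 (adjusted p = 0.0666) and Mapk10 -1.25 (adjusted p = 0.101). Without Sus-T with trauma replicate 3, Map4k5 passed with 1.04 (adjusted p = 0.0287), and without Sus-T with trauma replicate 1, Mapk10 passed with -1.51 (adjusted p = 0.0303). Map3k14 passed without Sus-T without trauma replicate 3, with 3.28 (adjusted p = 0.0396). Oligodendrocyte markers had interactions in the opposite direction to their difference without trauma, with 15 of 17 called higher. With their mean level as a covariate, 0 members and 2 of all genes were called. Pyramidal markers had interactions below 0, with 0 of 4 above 0, a median of -1.68 and 1 called lower. Microglia markers had 0 of 3 above 0, with a median of -1.09 and 0 called. The part of these markers in the members' interactions was not tested.

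In the prefrontal cortex, Sus-T and Res-T libraries with trauma differed in 6 of 23 members, 26.1%, against 23% of all 6080 genes called (limma). Of these, 4 were higher in Sus-T, where 14% of all genes were called higher, among them the MAP2Ks Map2k4 and Map2k1 and the MAP kinase Mapk14. The other 2, Map3k11 and Map4k5, were lower, where 8.93% of all genes were called lower. The median log2 change was 0.54 for MAP2K genes, 0.60 for MAPK genes, -0.25 for MAP3K genes, -0.73 for MAP4K genes and 0.50 for the 3 scaffolds or interacting proteins. It was -0.05 over all members and 0.15 over all genes. Mapk8ip2, Map3k10, Map3k5, Mapk10 and Map3k2, called in the amygdala, had no prefrontal values. The tier medians of the 2 regions therefore cover different genes. Quantile normalisation moved the median of all genes to -0.01 and median-of-ratios scaling moved it to 0.02, so each log2 change given here includes that shift of all genes. Higher calls made up 61.1% of all calls on the values as deposited, 52.2% after quantile normalisation and 49.6% after median-of-ratios scaling. No tier median changed sign under either scaling, and 7 members were called under each. Every Sus-T library lay above every Res-T library for 7 members and below for 4, and the groups did not overlap for 40.7% of all genes.

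Map2k4 (chr11:65688243-65788297), the JNK and p38 activator MKK4, had values of 270.1, 345, 365 and 391 in prefrontal Sus-T libraries with trauma, against 102, 98.8 and 90.0 in Res-T. Map2k1, the ERK activator MEK1, had 252, 235, 312 and 232 in Sus-T, against 106, 118 and 96.6 in Res-T. The groups were far apart for both genes, and the Res-T libraries lay close together. Of these, replicate 1 had a weight of 0.731 in the missing dimensions, so its values were not free of those of the other libraries. Their log2 changes were 1.80 ± 0.26 for Map2k4 (3.49-fold higher, adjusted p = 0.00129) and 1.26 ± 0.29 for Map2k1 (2.40-fold higher, adjusted p = 0.00798). The other MAP2Ks, Map2k2 (MEK2) and Map2k7 (MKK7), had log2 changes of -0.20 (adjusted p = 0.613) and -0.18 (adjusted p = 0.722). For Map2k2 the values were 146, 138, 144 and 135 in Sus-T and 155, 167 and 163 in Res-T, with no overlap at a small difference.

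Mapk14 (chr17:28691329-28748406), the gene of p38 alpha, had values of 133, 269, 222 and 231 in prefrontal Sus-T libraries with trauma, against 65.2, 78.3 and 69.0 in Res-T. The groups did not overlap, with Sus-T replicate 1 the lowest of its group. The log2 change was 1.54 ± 0.44 (2.91-fold higher, adjusted p = 0.0198, limma). Mapk14 missed the threshold without Res-T with trauma replicate 1 (adjusted p = 0.0707) or replicate 4 (0.0646), or without Sus-T with trauma replicate 2 (0.0513). Mapk3, the gene of ERK1, had 697, 563, 677 and 714 in Sus-T against 438, 732 and 255 in Res-T; the Res-T libraries were spread widely and overlapped Sus-T (log2 change 0.60 ± 0.31, adjusted p = 0.166). Without Res-T with trauma replicate 3 its log2 change was 0.98 (adjusted p = 0.0391).

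Of the JNK genes measured in the prefrontal cortex, Mapk9 had 673, 496, 443 and 454 in Sus-T against 354, 347 and 292 in Res-T, with no overlap (log2 change 0.62 ± 0.33, adjusted p = 0.181). Mapk8 had 362, 332, 265 and 372 in Sus-T against 338, 286 and 408 in Res-T, with overlap (log2 change -0.05 ± 0.23, adjusted p = 0.904). Mapk7, which encodes ERK5, had 102, 78.2, 26.5 and 44.3 in Sus-T against 110.3, 143 and 83.8 in Res-T (log2 change -0.97 ± 0.44, adjusted p = 0.124). Its Sus-T libraries reached into the range of Res-T. Mapk6 and Mapkapk2 had log2 changes of -0.20 and -0.09, with adjusted p of 0.669 and 0.859. The JNK scaffold Mapk8ip1 had 2379, 1828, 1889 and 2160.4 in Sus-T against 1364, 2059 and 1065 in Res-T (log2 change 0.51 ± 0.24, adjusted p = 0.128). Without Res-T with trauma replicate 3 its log2 change was 0.77 (adjusted p = 0.041).

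The members lower in prefrontal Sus-T libraries with trauma were again a MAP3K and a MAP4K. Map3k11, the gene of MLK3, had values of 97.2, 113, 63.9 and 101 in Sus-T, against 235, 239 and 213 in Res-T. Map4k5 had 334, 505, 453 and 498 in Sus-T, against 896, 941 and 798 in Res-T. No Sus-T library reached the lowest Res-T library for either gene. The log2 changes were -1.31 ± 0.37 for Map3k11 (2.47-fold lower, adjusted p = 0.0185) and -0.99 ± 0.31 for Map4k5 (1.98-fold lower, adjusted p = 0.0291). Without any 1 of the 3 Res-T libraries with trauma, adjusted p was 0.0554 to 0.0716 for Map3k11 and 0.0662 to 0.0904 for Map4k5; Map3k11 also missed the threshold without Sus-T replicate 3 (0.057), and Map4k5 without Sus-T replicate 1 (0.0775) or 3 (0.057). Map4k4 had 1301, 1386, 989 and 1629 in Sus-T against 1699, 2044 and 1715 in Res-T (log2 change -0.47 ± 0.20, adjusted p = 0.0971). The remaining MAP3Ks had log2 changes of -0.50 (Map3k13) to 0.24 (Map3k12), with adjusted p of 0.34 to 0.997.

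**Figure D4:**
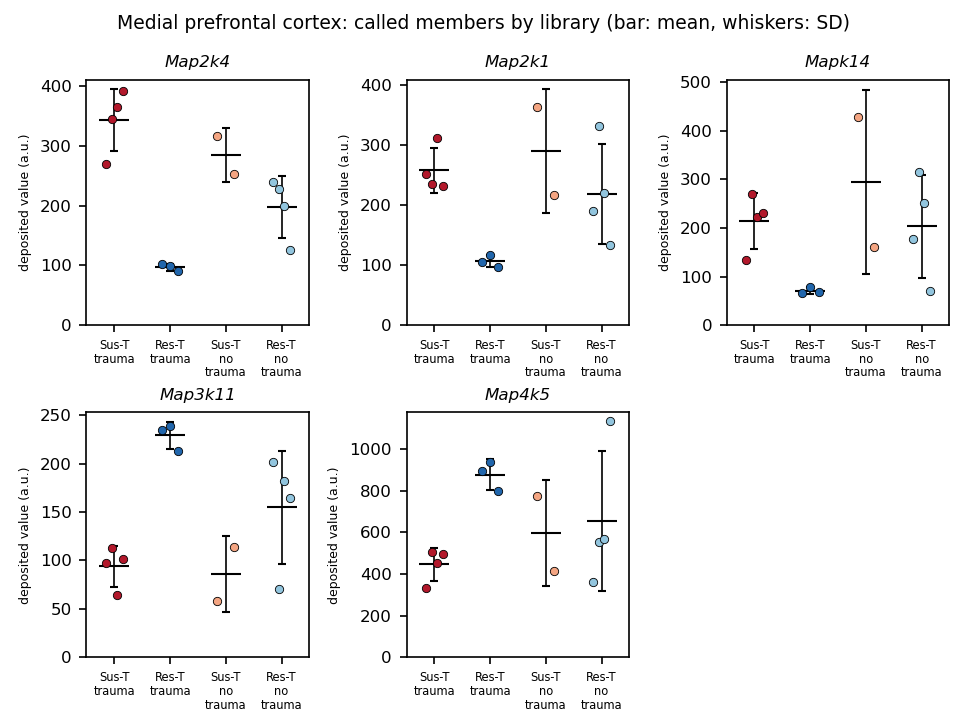
Deposited value of 5 of the 6 called prefrontal members in every library, in arbitrary units, with the 4 groups side by side; bars are group means and whiskers the SD. With trauma, the Sus-T points of Map2k4, Map2k1 and Mapk14 lie above all Res-T points and those of Map3k11 and Map4k5 below; Res-T without trauma replicate 4 stands apart from its group, with values of 125 for Map2k4, 69.4 for Mapk14 and 1137 for Map4k5.

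Oligodendrocyte markers moved with this comparison too. They made up 2.64% to 4.45% of the signal in prefrontal Sus-T libraries with trauma and 5.30% to 7.40% in Res-T. Of these, 8 of 11 were called lower in Sus-T, and 0 of 11 had a log2 change above 0. Dissociation-response genes made up 0.194% to 0.282% in Sus-T and 0.382% to 0.495% in Res-T; 1 of 6 had a log2 change above 0, the median was -0.78, and 0 of 6 passed the test. Oligodendrocyte precursor markers made up 0.0344% to 0.0708% in Sus-T and 0.0222% to 0.0327% in Res-T, with 1 of 2 called higher. The part of both lists in the members' differences was not tested. With the mean log2 level of the oligodendrocyte markers as a covariate, 0 of 23 members and 0 of all genes were called. The log2 changes under this covariate were 1.51 ± 0.37 for Map2k4, 0.85 ± 0.41 for Map2k1, 0.81 ± 0.61 for Mapk14, -1.16 ± 0.55 for Map3k11 and -0.11 ± 0.34 for Map4k5. The covariate ran from 10.9 to 11.8 in Sus-T and from 12.1 to 12.6 in Res-T with trauma, without overlap. Here too the fit extends the marker slope seen within groups across a gap. The loss of a call under it is not read as separating the group difference from the marker level. Without Res-T with trauma replicate 1 or replicate 4, 3 of 23 members passed, with 624 and 669 of all genes.

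The other prefrontal comparisons called 0 of 23 members and 0% of all genes (limma). Between Sus-T and Res-T without trauma, 0 members and 630 genes had an unadjusted p under 0.05, and the smallest adjusted p of a member was 0.517 (Map3k11, log2 change -0.82). With against without trauma in Res-T, 4 members and 899 genes had one, among them Map2k4 with a log2 change of -0.98 (adjusted p = 0.169), Map2k1 with -0.96 (adjusted p = 0.208) and Mapk14 with -1.31 (adjusted p = 0.217). Values of Mapk14 with trauma were 65.2, 78.3 and 69.0, against 178, 314, 250.2 and 69.4 without, so that replicate 4 alone lay within the range with trauma. That library had 8.68% of its signal in oligodendrocyte markers, against 3.21% to 3.85% in the other 3 of its group. Without it, 4 members and 588 of all 6080 genes were called: Map2k4 (-1.19, adjusted p = 0.00771), Mapk14 (-1.76, adjusted p = 0.00895) and Map2k1 (-1.17, adjusted p = 0.0173) lower with trauma, and Map4k5 (0.85, adjusted p = 0.045) higher. The groups then did not overlap in oligodendrocyte markers either, with 5.30% to 7.40% of the signal with trauma against 3.21% to 3.85% without. The part of these markers in the calls was not tested. With against without trauma in Sus-T, 0 members and 91 genes had an unadjusted p under 0.05, and for the interaction 1 member and 371 genes.

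The amygdala comparison without trauma and the prefrontal comparison with trauma share no library. Both had log2 changes of the same sign in 17 of the 21 members measured in both regions, 81.0%, against 76.2% of 5274 genes. Across the members, the log2 changes had a Spearman rho of 0.864, against 0.677 across the genes; genes are not independent replicates, the labels do not say whether both regions came from the same animals, and oligodendrocyte markers were lower in Sus-T in both. Map3k11 and Map4k5 were among the 3 members called in both, and all 695 genes called in both, these included, had the same direction. For the regions compared under the same condition, agreement was lower. Without trauma, 16 of 21 members had the same sign (76.2%, against 69.9% of genes), with a rho of 0.734 (0.506 across genes). With trauma, it was also 16 of 21 (76.2%, against 65.4% of genes), with a rho of 0.632 (0.380 across genes). No gene was called in both regions under the same condition. Within the prefrontal cortex, the comparisons with and without trauma had the same sign in 20 of 23 members, 87.0%, against 73.8% of genes. Within the amygdala this was 27 of 36, 75.0%, against 66.2% of genes.

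Levels of different members were compared as the group mean value per kilobase of exon. Mapk8ip1 was the highest member in every group of both regions, with group means of 448 to 480.4 per kilobase in the amygdala and 322 to 456 in the prefrontal cortex. Mapk3 had 222 to 332 and 211 to 311 in the same order of regions, and Map4k4 had 176 to 258 and 138 to 189.9; Mapk3 was above Map4k4 in every group except amygdala Res-T without trauma, where it had 222 against 258. In the amygdala Map3k14 had 1.55 to 4.35 per kilobase and Map3k20 3.58 to 9.57, and Map3k14 was the lowest member in 3 of the 4 groups. In Res-T without trauma Map3k20 was the lowest, at 3.65 against 4.01 for Map3k14. In the prefrontal cortex Map3k13 had 10.6 to 18.6 per kilobase and was the lowest in 3 of the 4 groups; in Res-T with trauma Mapk14 was the lowest, at 16.2. The sources used here do not give whether the deposited values were already scaled for length.

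**Figure D5:**
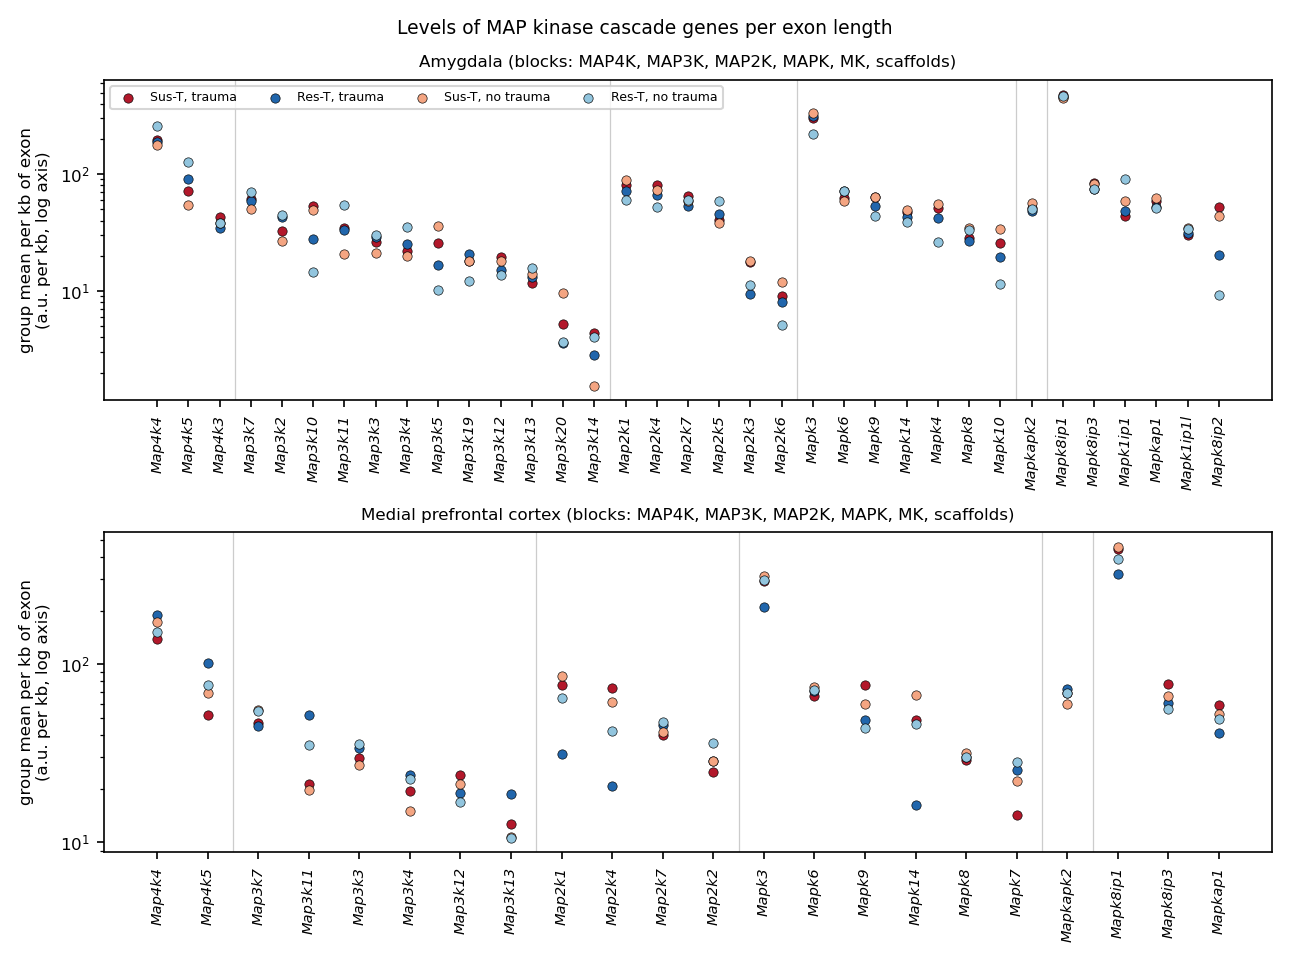
Group mean value per kilobase of exon of the measured members in each region, 1 left out, on a log axis, in blocks by tier, with a point for each of the 4 groups. Amygdala group means run from 1.55 (Map3k14) to 480.4 (Mapk8ip1), and Mapk8ip1 is the highest in every group of both regions.

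Genes that feed, brake or read out the cascade were counted from lists drawn up for this pathway. Here and in the next paragraph, counts of genes higher or lower are of genes called at an adjusted p under 0.05. In the amygdala without trauma, these counts stand beside 12.4% of all genes called higher and 15% called lower, and 44 of all genes were called with the oligodendrocyte covariate. All 4 measured pyramidal markers were called higher in this comparison, with a median log2 change of 3.12. The part of these markers in the counts was not tested. Of 27 measured Ras and Raf input genes in the amygdala without trauma, 7 were higher and 4 lower in Sus-T: the Raf scaffold Ksr2 (log2 change 2.75 ± 0.47) and the small GTPase Mras (1.46 ± 0.25) were higher, and the adaptor Gab1 (-1.79 ± 0.23) was lower. Of 19 genes that brake Ras or Rap signalling, 5 were higher and 1 lower, led by the GTPase-activating proteins Rap1gap2 (3.77 ± 0.42, 13.7-fold) and Sipa1l1 (2.68 ± 0.33). Of 13 MAP kinase phosphatases, 3 were higher and 1 lower, with Dusp8 at 0.998 ± 0.22, Dusp18 at 1.69 ± 0.47 and the ERK phosphatase Dusp6 at 1.75 ± 0.56. Of 18 substrates, 8 were higher and 1 lower, with the transcription factor Mef2c at 2.90 ± 0.31 and the microtubule proteins Map2 at 2.51 ± 0.45 and Dclk1 at 1.50 ± 0.31. Of 17 other scaffolds, 2 were higher (Arrb1 at 1.99 ± 0.29 and Sh3rf1 at 1.13 ± 0.32) and 1 lower (Strn at -1.18 ± 0.21), and 0 of 7 further MAP3K or MAP4K family genes were called.

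In the prefrontal cortex with trauma, the same lists stand beside 14% of all genes called higher and 8.93% called lower, and 0 of all genes were called with the oligodendrocyte covariate. Here 3 of 16 Ras and Raf input genes were higher and 1 lower in Sus-T, with the Rap activator Rasgrp2 at a log2 change of 2.80 ± 0.59 and Gab1 at -1.18 ± 0.27. None of the 10 brakes passed. Of 12 phosphatases, 3 were higher and 2 lower, with Dusp16 at -1.12 ± 0.22, Dusp10 at -2.31 ± 0.57 and Dusp3 at 0.98 ± 0.25. Of 17 substrates, 3 were higher and 0 lower, with Mef2c at 3.38 ± 0.47, Map1b at 1.49 ± 0.28 and the kinase Rps6ka4 at 2.28 ± 0.52. Of 9 other scaffolds, 2 were higher (Lamtor5 at 1.87 ± 0.62 and Pea15a at 0.63 ± 0.22) and 1 lower (Mapkbp1 at -0.91 ± 0.30), and 2 of 7 further family members, Stk3 (1.40 ± 0.31) and Taok2 (0.84 ± 0.22), were higher. Gab1 was lower and Mef2c higher in both regions, in the comparisons in which oligodendrocyte markers were lower.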

How the data were processed

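Cells labelled as pyramidal neurons were sorted from 2 brain regions and their RNA was sequenced. The submitters' processing notes name bcl2fastq 2.20, Salmon 1.2 and the build GRCm38.p6. What the authors deposited was read here as a normalised signal; the normalisation is not given in the sources used here, the values are not counts, and read depth is unknown. Of 29 samples described, the submitters removed 3, and 26 were used. Gene identifiers were matched to GENCODE M21 symbols, for 9871 of 9872 amygdala and all 6080 prefrontal rows. For each region, limma 3.58.1 (R 4.3.3) was fitted to log2(value + 1) in 4 groups, with trend and robust empirical Bayes, 5 contrasts and Benjamini-Hochberg adjustment over all genes; a minimum mean of 1 removed 0 genes. The script was tested on simulated data. Residual degrees of freedom were 9 per region, which counts the missing dimensions as free, so p-values may be too low. The regions were treated as normalised separately and were not tested against each other. Members that passed in a region, the best of each tier and the main ERK, JNK, p38 and MEK genes are given by library; some genes that the counts include are not reported here. The members and lists were chosen with earlier results of these data known. Alternatives were another pseudocount, scaling or minimum mean, plain empirical Bayes, a replicate block, an oligodendrocyte covariate, only the 2 groups compared, leaving out each library, and, chosen after seeing the data, the missing dimensions as covariates.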

Additional observations from a re-analysis of the deposited data

Results flagged for a closer look

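Of 118 groups of 4 libraries examined, 1 for each member, region and group of that size, 6 (5.08%) held a library whose gap to the nearest of the others took up an unusually large part of the range of the group by Dixon's criterion; chance flags about 1 in 20 groups. In the amygdala with trauma, Sus-T replicate 2 had 98.38 for Map2k3, the gene of the p38 activator MKK3, where the other 3 Sus-T libraries had 42.6 to 47.3. The same library had 214.874 for Map3k12, the gene of DLK, where the others had 158 to 165. Sus-T replicate 1 had 596.905 for Mapk6, the gene of ERK3, where the others had 357 to 363. In Res-T with trauma, replicate 2 had 161.018 for Map3k3, the gene of MEKK3, against 97.3 to 105 in the others, and replicate 3 had 284.724 for Map3k4, the gene of MEKK4, against 245.7 to 252. In the prefrontal cortex with trauma, Sus-T replicate 1 had 193.525 for Map2k7, the gene of MKK7, against 136 to 144 in the others. All 6 flagged values were the highest of their group, and 4 of the 6 were in Sus-T with trauma. Sus-T with trauma was examined in both regions, Res-T with trauma only in the amygdala and Res-T without trauma only in the prefrontal cortex. Exons of Map2k7 overlap another gene on the same strand over 35.2% of its exon length, and those of Map3k12 an opposite-strand gene over 17.5%.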

How the results depend on the processing

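Of 295 pairs of a member and a contrast, 17 were called and 255 were called neither on the deposited values nor under any alternative. In the amygdala without trauma, the 10 called members became 0 with the oligodendrocyte covariate, under which Map3k2 took a log2 change of 0.11, opposite to its direction without it. This count was 6 to 9 when 1 library was left out, with 6 without Sus-T without trauma replicate 1. In the prefrontal cortex with trauma, the 6 called members became 0 with the oligodendrocyte covariate and 3 to 6 when 1 library was left out, with 3 without Res-T with trauma replicate 1 or replicate 4. The 1 member called for trauma in amygdala Res-T became 2 with median-of-ratios scaling or a mean of at least 10 and 0 without trend and robust fitting, and was 0 to 1 when 1 library was left out. Leaving out 1 library gave 0 to 1 members between Sus-T and Res-T with trauma in the amygdala, 0 to 2 for the amygdala interaction and 0 to 4 for trauma in prefrontal Res-T. The cause of these differences was not tested. A group of 2 left with 1 library is assumed to vary like the other groups.

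After group means were subtracted, libraries with the same replicate number had correlations of -0.446 to 0.159 in the amygdala and -0.395 to 0.346 in the prefrontal cortex. Libraries with different numbers had -0.446 to 0.446 and -0.603 to 0.573. Deviations within groups of 2 to 4 libraries are tied to each other, and dimensions are missing. This comparison therefore could not decide whether replicate numbers pair the libraries. With a replicate block, the calls became 8 in the amygdala without trauma, 2 for trauma in amygdala Res-T and 5 in the prefrontal cortex with trauma. With the missing dimensions as covariates, an alternative chosen after seeing the data, they were 8, 1 and 6, and all-gene calls were 2336, 389 and 892 in place of 2706, 610 and 1397. Without trend and robust fitting, all-gene calls for trauma in amygdala Res-T were 339. For that contrast, higher calls made up 53.4% of all-gene calls on the deposited values, 70.8% after quantile normalisation and 65.5% after median-of-ratios scaling. Read depth is not known, so what depth limits could not be assessed, and groups of 2 to 4 libraries limit the precision.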
